A study of Mus musculus with 14 samples.

Results

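A set of 9 genes that restrain NF-kB signalling or keep cells alive while it is active was followed in wounded mouse fibroblasts: Tnfaip3, Tnfaip2, Tnip1, Tnip3, Birc2, Birc3, Traf1, Sod2 and Cflar. They were taken by gene symbol, 9 of the 43472 genes listed in the data, and all 9 symbols were found in both tables. The cells were primary fibroblasts cultured from tail tips of C57BL/6 mice and scratched as a monolayer. They were left untreated or received autologous micrograft (AMG), a filtered extract of disrupted mouse skin, diluted 1:10 in the medium. By the paper's methods the extract was centrifuged to remove cells and debris, and the paper calls it noncellular. The labels name no genetic change in either group, and the age of the mice was not given in the sources used here. RNA was sequenced from 14 libraries, with replicate 1 of each group collected at 1, 5, 12 and 24 h and replicates 2, 3 and 4 of each group at 5 h only. The comparison asked how the treated cells differed from untreated wounded cells at the same time, so the scratch was common to both groups and its own effect was not measured.

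NF-kB transcription factors are held in the cytoplasm by inhibitor proteins and are released when receptors for TNF, interleukin-1 or microbial products recruit kinases through chains of ubiquitin. The factors then switch on genes that inflame the tissue, and also genes that end the signal or protect the cell that receives it. Tnfaip3 encodes A20, a ubiquitin-editing enzyme that dismantles the receptor complex, and Tnip1 and Tnip3 encode ABIN proteins, which bind A20. Birc2 and Birc3 encode cIAP1 and cIAP2, the ubiquitin ligases of the receptor complex, and Traf1 encodes an adaptor that binds them with TRAF2. Cflar encodes cFLIP, which blocks caspase-8, Sod2 encodes the mitochondrial superoxide dismutase, and Tnfaip2 is a TNF-induced gene whose product takes part in membrane protrusions.

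Promoter stretches of 4 of these genes are shown because they carry the 10-base kappaB consensus, the letters that NF-kB dimers can recognise, close to the RefSeq start of the gene. The sequences are from RefSeq on build GRCm38.p6, the assembly that mm10 names. They run 5′ to 3′ on the strand of the gene, with capitals marking the bases that match the consensus. Each is the longest run outside annotated exons within the 250 bases upstream of the start. That left 137 bases for Tnfaip3 and 228 for Sod2.
Tnfaip3 (chr10:19015411-19015547, minus strand, 137 bases): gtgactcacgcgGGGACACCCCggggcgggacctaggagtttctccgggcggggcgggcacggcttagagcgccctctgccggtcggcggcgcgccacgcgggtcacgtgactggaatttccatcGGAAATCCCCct
Tnip1 (chr11:54962941-54963190, minus strand, 250 bases): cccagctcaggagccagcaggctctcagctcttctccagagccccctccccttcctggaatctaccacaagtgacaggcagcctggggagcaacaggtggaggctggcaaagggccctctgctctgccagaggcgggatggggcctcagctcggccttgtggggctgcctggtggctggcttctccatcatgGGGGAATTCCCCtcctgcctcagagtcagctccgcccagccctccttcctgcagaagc
Tnip3 (chr6:65590148-65590397, plus strand, 250 bases): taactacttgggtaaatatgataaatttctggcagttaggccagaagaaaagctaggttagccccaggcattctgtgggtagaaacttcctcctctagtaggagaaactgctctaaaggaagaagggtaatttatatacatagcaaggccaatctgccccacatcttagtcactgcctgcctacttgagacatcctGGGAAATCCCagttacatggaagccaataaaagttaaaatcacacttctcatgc
Sod2 (chr17:13007589-13007816, plus strand, 228 bases): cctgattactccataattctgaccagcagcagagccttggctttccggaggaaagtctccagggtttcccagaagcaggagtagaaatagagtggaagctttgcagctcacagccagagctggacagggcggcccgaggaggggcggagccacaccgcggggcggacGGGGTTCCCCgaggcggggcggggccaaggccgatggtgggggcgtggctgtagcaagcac
In Tnfaip3 the matches lay 125 to 116 and 12 to 3 bases upstream of the start. The Tnip1 capitals hold 3 overlapping matches that together span 58 to 47 bases upstream. The match was 54 to 45 bases upstream in Tnip3 and 83 to 74 bases upstream in Sod2. Within 250 bases upstream, read on both strands, 5 of the 9 genes had a match, the other one being Tnfaip2, whose window is not printed. Among all genes with such windows, 8.23% (2225 of 27025) had one. The windows of Birc2, Birc3, Traf1 and Cflar held no match. The AP-1 letters TGANTCA, which overlapped no kappaB match, were present in the window of 1 of the 9 genes, Tnfaip3, and in 7.82% of all genes. These letters are a description of the windows and were not measured as bound sites.

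Depth ranged from 12545537 to 34696529 gene-assigned reads per library, and the 2 tables, 8 libraries of replicate 1 and 6 of replicates 2 to 4, were scaled separately, so levels were not compared across them. Levels are normalised counts, which are reads divided by a size factor of the library. Fibroblast markers (8 genes, including Col1a1 and Pdgfra) were all well above the low-count limit, with a summed level of 344719 to 497137 in untreated and 252808 to 334815 in treated libraries of replicates 2 to 4. With limma 0 of these 8 passed, and with the replicate block 6 were lower, at a median log2 difference of -0.52. With that block 19.3% of all genes tested were lower. Leukocyte markers, 9 genes of immune cells, summed to 167 to 1453 in untreated and 214 to 1289 in treated libraries. Of these, 0 of 7 tested passed with limma in either direction, with or without the replicate block. Endothelial markers summed to at most 238 and keratinocyte markers to at most 285, with 2 of 6 and 3 of 8 genes at 0 in all 6 libraries. With the block, 1 of 1 tested endothelial and 1 of 2 tested keratinocyte markers were lower, against the same 19.3% of all genes tested. In the 5 h pair of replicate 1 the leukocyte sum was 1982 untreated and 548 treated. The part of these marker differences in the results was not tested. In replicate 1, ribosomal protein genes took 6.35% of the reads of Untreated 5h and 4.63% of those of AMG-treated 1h, against 2.03% to 3.10% in the other 12 libraries. In bulk RNA, a change in the number of cells that carry a transcript and a change in the transcript per cell cannot be told apart.

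At 5 h in replicates 2 to 4, transcripts of A20, cIAP2 and the mitochondrial superoxide dismutase were higher with AMG. The folds were 7.41 for Tnfaip3, 3.07 for Birc3 and 2.90 for Sod2. Of the 9 genes, 8 reached a mean normalised count of 10 over the 6 libraries and were tested, and 3 of those 8 passed an adjusted p under 0.05 as higher and 0 as lower. Over all 13096 genes tested, 0.97% passed as higher and 0.267% as lower. The tested genes had a median log2 fold change of 1.53, against -0.02 over all genes tested. In all 8 the lowest treated value lay above the highest untreated value, a separation that 15.1% of all genes tested had in that direction. Traf1 is among these 8, but averaged 8.90 untreated and 262 treated, so it reached the limit only through its treated libraries. Tnip3 was under the limit and its groups overlapped.

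The replicate numbers paired the libraries, and with the number as a block 7 of the 8 genes passed, all but Birc2, while 17.9% of all genes tested passed as higher and 19.3% as lower. Without the block the count changed when any 1 library was left out. It was 0 without any 1 of Untreated 5h replicate 2, 3 or 4 or AMG-treated 5h replicate 2 or 4, and 6 without AMG-treated 5h replicate 3. That library had the lowest treated level of every gene of the 9 except Tnfaip2. The share of all genes called in these fits was not counted. The pathway genes described below moved in the same fits, to 0 and to 27 higher, so the swing was not particular to the 9. At an unadjusted p under 0.05, 7 of the 8 passed with limma as higher, as did 11.9% of all genes tested. The count tests on recovered reads called 3 of the 8 as higher with edgeR, against 0.817% of all genes, and 7 with DESeq2, against 6.68% of the genes to which it gave an adjusted p. Fold changes are on the log2(normalised count + 1) scale throughout, which understates the change of genes with few reads.

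**Figure D1:**
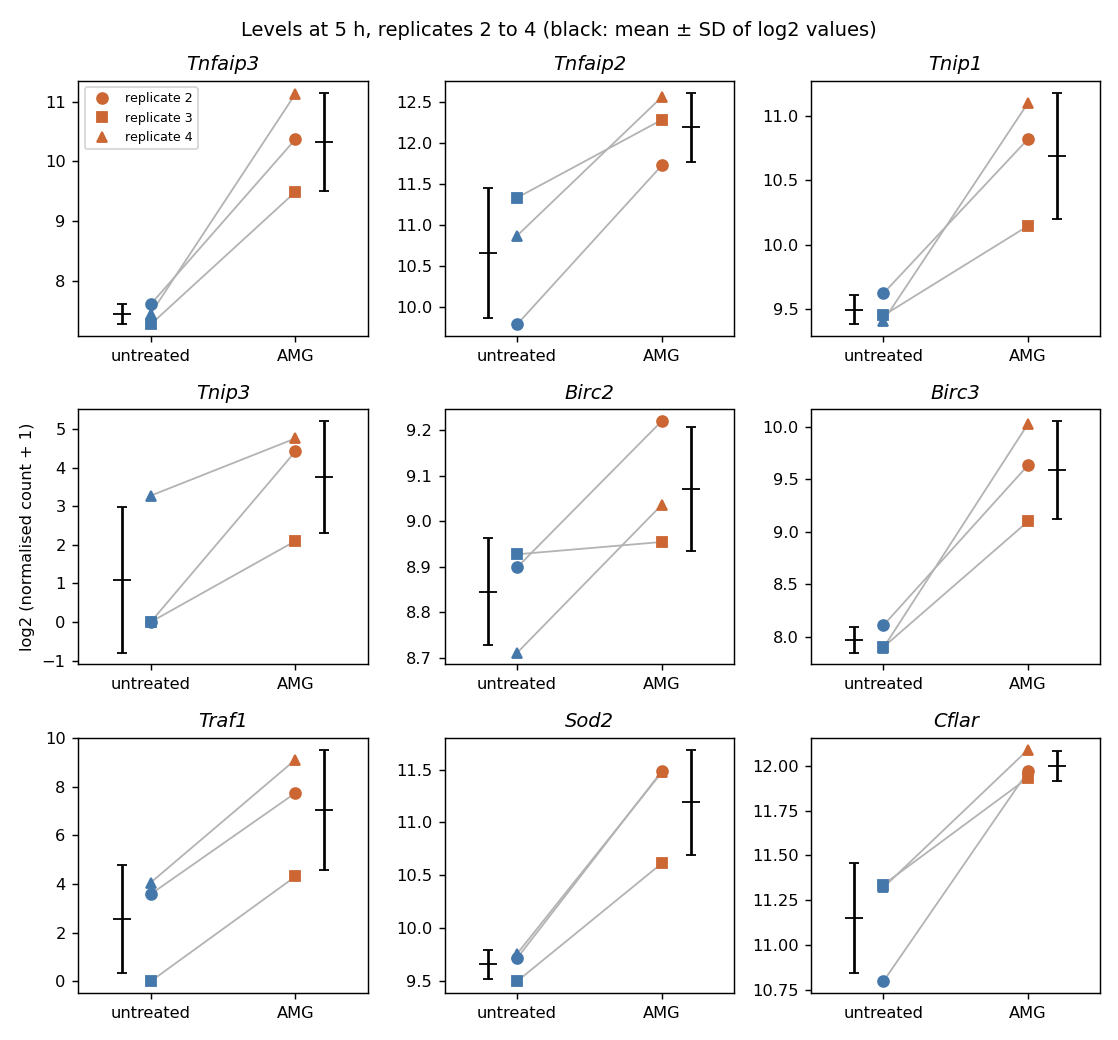
Levels of the 9 genes at 5 h in replicates 2 to 4, as log2(normalised count + 1) on the vertical axis, untreated in blue and AMG-treated in orange, with grey lines joining libraries of the same number and black bars for the mean ± SD of 3 log2 values. Treated points lie above all untreated points in 8 of the 9 genes, Tnip3 being the exception, and each panel has its own vertical range.

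Tnfaip3 was measured at chr10:19000910-19015657, minus strand, in a gene whose exons merge to 7226 bases. Its untreated levels in replicates 2, 3 and 4 were 194, 153 and 174. The treated levels were 1323, 717 and 2242. The untreated libraries sat close together, and the treated ones spread over a range wider than their own lowest value, yet the groups were far apart. The mean went from 173 ± 20.2 to 1428 ± 768 (SD, n = 3 each). The log2 fold change was 2.89 (SE 0.39, 95% confidence interval 1.97 to 3.81), with an adjusted p of 0.0273 in limma and of 4.50e-05 with the block, and from 1.51e-11 to 0.164 over all alternatives. It was past the threshold in 13 of 19 alternatives.

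The A20-binding genes differed from each other in level. Tnip1 (chr11:54910785-54962917, minus strand) had untreated levels of 788, 699 and 679 and treated levels of 1809, 1133 and 2198 in replicates 2, 3 and 4. The groups did not overlap. Its log2 fold change of 1.20 (SE 0.24, interval 0.62 to 1.77) had an adjusted p of 0.0713 with limma, and 0.000934 with the block, within a range of 0.000287 to 0.254 over the alternatives. A pseudogene, Gm12230, lies within Tnip1 on the other strand and had 0 reads in these 6 libraries. Tnip3 (chr6:65525313-65634040, plus strand) was near the limit of detection, with 0, 0 and 16 reads in the untreated and 16, 4 and 23 reads in the treated libraries. These are normalised counts of 0, 0 and 8.65 against 20.4, 3.28 and 26.0. The treated library of replicate 3 fell under the untreated library of replicate 4, so the groups were not separated. When every gene with a value above 0 was kept, the fitted log2 difference of Tnip3 was 2.67 (SE 1.10) with a limma adjusted p of 0.287.

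The cIAP genes lie next to each other on chromosome 9, 11634 bases apart, and 1 of the pair passed the test. Birc3 (chr9:7848699-7873186, minus strand) had untreated levels of 275, 238 and 237 in replicates 2, 3 and 4 and treated levels of 794, 548 and 1044. The lowest treated library was still well above the highest untreated one. Its log2 fold change was 1.62 (SE 0.24, interval 1.04 to 2.20) with an adjusted p of 0.0402 in limma, 0.000241 with the block and 5.01e-07 to 0.194 over the alternatives. Birc2 (chr9:7818227-7837064, minus strand) had untreated levels of 476, 486 and 418 and treated levels of 595, 495 and 524. The groups were apart by a narrow margin, 486 against 495. Its log2 fold change was 0.22 (SE 0.14, interval -0.11 to 0.56) and it passed in 0 of 19 alternatives, with an adjusted p of 0.376 in limma and from 0.111 to 0.681 over the alternatives. RefSeq lists each of the symbols among the synonyms of the other gene, and the annotation release used for counting was not given in the sources used here, so the names were taken as the tables give them.

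Traf1 (chr2:34941750-34961772, minus strand) was almost silent in untreated cells. Its untreated libraries of replicates 2, 3 and 4 held 10, 0 and 29 reads, or normalised counts of 11, 0 and 15.7. The treated libraries held 168, 23 and 490 reads, or 214, 18.9 and 553. Every treated value was above every untreated value, and the treated library of replicate 3 was far under the other two. The log2 fold change was 4.51 (SE 1.49, interval 0.97 to 8.04), the largest point estimate of the 8 tested genes and the least precise. Its untreated mean of 8.90 was under the limit of 10, so Traf1 was tested only because its treated levels were high. The limma adjusted p was 0.150, against 3.76e-05 with the block, within 6.67e-06 to 0.393 over the alternatives. The log2 fold change itself ranged from 3.13 to 5.88 over the alternatives. Leukocyte markers summed to 275, 167 and 1453 in untreated and 223, 214 and 1289 in treated libraries of replicates 2, 3 and 4. In both groups this sum and Traf1 were each lowest in replicate 3 and highest in replicate 4. The part of leukocytes in the Traf1 levels was not tested.

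Cflar (chr1:58711508-58758884, plus strand) was expressed strongly in both groups. Its untreated levels were 1779, 2586 and 2557 and its treated levels 4009, 3911 and 4361 in replicates 2, 3 and 4. Here the treated libraries were the more uniform ones, and the low untreated library of replicate 2 set much of the spread. The log2 fold change was 0.85 (SE 0.17, interval 0.44 to 1.25), with a limma adjusted p of 0.0710, 0.000939 with the block and 0.000239 to 0.269 over the alternatives. With the correction for transcript length and no block, the limma adjusted p of Cflar was 0.0381.

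Sod2 (chr17:13006846-13040063, plus strand) had untreated levels of 838, 720 and 863 and treated levels of 2863, 1563 and 2842 in replicates 2, 3 and 4. Replicates 2 and 4 were alike under AMG and replicate 3 was lower, above all untreated libraries. The log2 fold change was 1.54 (SE 0.25, interval 0.94 to 2.13), with an adjusted p of 0.0438 in limma, 7.57e-05 with the block and 1.13e-06 to 0.202 over the alternatives. With a correction for transcript length and no block, the limma adjusted p of Sod2 was 0.0517.

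Tnfaip2 (chr12:111442469-111455018, plus strand) varied widely without treatment, at 882, 2575 and 1867 in replicates 2, 3 and 4. Its treated levels were 3382, 4973 and 6030. The groups were separate, and the library of replicate 2 was the lowest of each group. The log2 fold change was 1.53 (SE 0.41, interval 0.56 to 2.49), close in size to that of Sod2 but with a larger error. Its limma adjusted p was 0.1096, against 0.000236 with the block and 0.000166 to 0.330 over the alternatives. An antisense gene, Gm40578, overlaps Tnfaip2 and has no row in the tables, and the strand setting of the counting was not given in the sources used here.

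**Figure D2:**
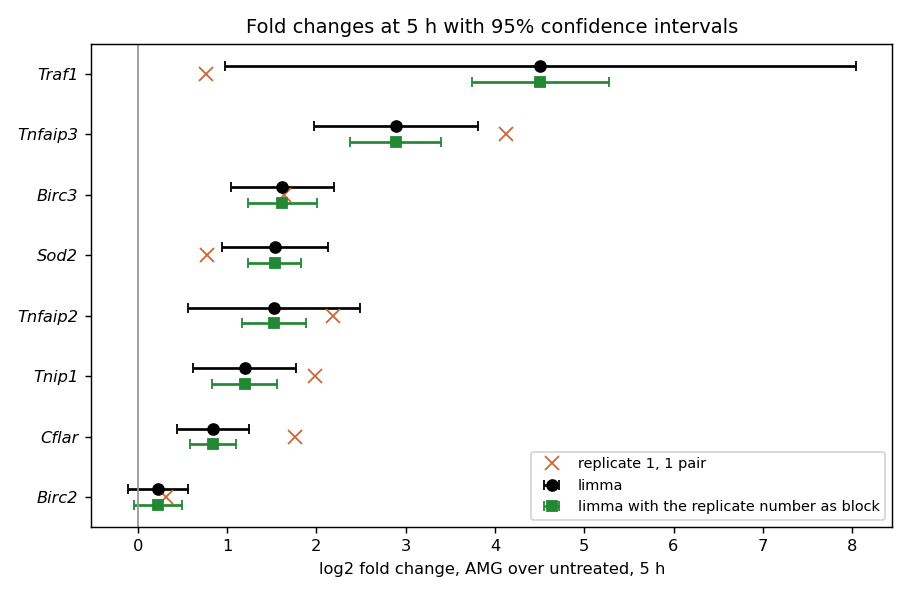
Log2 fold change of AMG over untreated at 5 h for the 8 tested genes, with 95% confidence intervals from limma (black circles) and from limma with the replicate number as a block (green squares), and the single pair of replicate 1 as orange crosses. Intervals reach below 0 for Birc2 alone in both fits, and Traf1 has the widest interval without the block.

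Replicate 1 was a further pair of libraries at 5 h, in the other table. All 8 tested genes were above 0 there and in each of the pairs 2, 3 and 4, as were 15.7% of all genes that reached a mean of 10 in each table. The log2 ratios of replicates 1, 2, 3 and 4 were 4.12, 2.77, 2.22 and 3.68 for Tnfaip3. They were 1.64, 1.53, 1.20 and 2.13 for Birc3. For Cflar, replicate 1 had the highest ratio (1.76) against 1.17, 0.60 and 0.77. For Sod2 it had the lowest, 0.78 against 1.77, 1.12 and 1.72. Traf1 also had its lowest ratio there, 0.77 against 4.16, 4.31 and 5.05. With the correction for transcript length the Cflar and Sod2 ratios of replicate 1 were 1.19 and 0.32. The untreated library of that pair is the one with 6.35% ribosomal protein reads, and its part in these ratios was not tested.

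Within a library, the balance between some of these genes and a partner gene differed between the groups. These 3 pairs of genes were picked after their values were seen, so they are described without a test, and only the shift between groups is read, since the ratios are not corrected for length. The log2 ratio of Birc3 to Birc2 was -0.97, -0.79, -1.03 and -0.82 in untreated replicates 1 to 4 and 0.36, 0.42, 0.15 and 0.99 in treated ones. Birc2 reads outnumbered those of Birc3 in all 4 untreated libraries, and the reverse held in all 4 treated libraries. The ratio of Tnip1 to Tnfaip3 went from 2.10 ± 0.12 to 0.29 ± 0.32 (SD, n = 4 each). The ratio of Sod2 to Sod1, the cytosolic superoxide dismutase, went from -1.42 ± 0.50 to -0.16 ± 0.14, and its lowest value, -2.14, was in the untreated library of replicate 1. Over replicates 2 to 4 the shift in Sod2 to Sod1 was 1.01, against 1.25 over all 4.

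**Figure D3:**
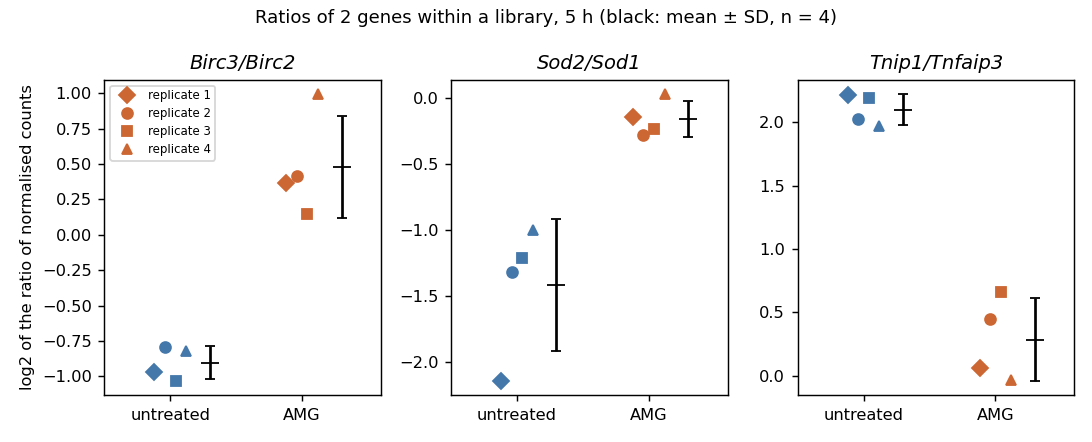
Log2 ratio of the normalised counts of a pair of genes within each library at 5 h, untreated in blue and AMG-treated in orange, with symbols for replicates 1 to 4 and black bars for the mean ± SD (n = 4). The groups do not overlap in any of the 3 panels, and the untreated library of replicate 1 stands low in the Sod2 to Sod1 panel.

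The time course in replicate 1 had 1 library for each group and time, so its ratios carry no test, and the intervals given are exact binomial ones for counting error only. The ratio was largest at 1 h for Tnfaip3, Traf1, Birc2, Birc3 and Tnip1, at 5 h for Tnfaip2 and Cflar, and at 24 h for Sod2 and Tnip3. Every 1 h ratio uses the AMG-treated 1h library, with 4.63% ribosomal protein reads. Every 5 h ratio uses the Untreated 5h library, with 6.35%. The part of these libraries in the times of the largest ratio was not tested. With the correction for transcript length the ratio of Tnip1 was larger at 5 h (2.10) than at 1 h (1.97), and the other 8 genes had the same time of the largest ratio. With AMG, 7, 5, 6 and 5 of the 9 were more than 2-fold higher at the 4 times in order, and 0 were more than 2-fold lower at any of them. Among the genes reaching a mean of 10 there, 11.3%, 13.3%, 5.93% and 6.05% were more than 2-fold higher, and 10.7%, 12.6%, 6.9% and 8.05% more than 2-fold lower. The median log2 ratio of the 9 was 1.54, 1.64, 1.14 and 1.39, against -0.06, -0.01, -0.01 and 0.02 over all genes. Ratios were above 0 at all 4 times for 6 of the 9 genes, compared with 7.22% of all genes.

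In replicate 1, Tnfaip3, Traf1 and Birc2 had ratios at 1 h well above those at the later times. Treated Tnfaip3 levels over the 4 times were 11398, 1872, 456 and 652, a 25.0-fold range, while untreated levels stayed between 107 and 265. The log2 ratio was 5.42 (5.26 to 5.60) at 1 h and 1.14 (0.93 to 1.36) at 12 h. A20 transcript was highest in the first sample taken and still above untreated in the last, with a log2 ratio of 1.69. Traf1 was 95.6 in treated against 4.39 in untreated cells at 1 h, from 55 and 5 reads, a log2 ratio of 4.16 (3.13 to 6.12). At 5 h the Traf1 ratio was 0.77 in this replicate, against 4.16, 4.31 and 5.05 in replicates 2, 3 and 4. The untreated level of replicate 1 at 5 h was 32.8, from 20 reads. At 12 and 24 h the treated levels of 7.62 and 12.6 had intervals that include no difference from untreated. Birc2, which was not called at 5 h, was 857 in treated against 357 in untreated cells at 1 h, a log2 ratio of 1.26 (1.07 to 1.46). Over the later times its ratio was 0.31, 0.02 and then -0.41 (-0.58 to -0.23). Treated Birc2 levels descended at each later time, from 857 to 406, and untreated levels went up from 357 to 538.

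Birc3 and Tnip1 also had their largest ratio at 1 h and were still higher with AMG at 24 h. Birc3 was 1337, 718, 568 and 710.2 in treated cells over the 4 times, against 229 to 271 without treatment, with log2 ratios of 2.41, 1.64, 1.15 and 1.39. Tnip1 had ratios of 2.03, 1.98, 0.83 and 0.87, and the intervals of the first 2 (1.89 to 2.17 and 1.81 to 2.16) overlapped. Tnfaip2 and Cflar had their largest ratio at 5 h. Tnfaip2 had ratios of 1.37, 2.18, 1.57 and 1.55, and its levels went down with time in both groups, from 14709 to 6240 in treated and from 5697 to 2130 in untreated cells. Cflar had the lowest ratio of the 9 genes at 1 h, 0.40 (0.31 to 0.49), and 1.76, 1.14 and 0.94 at the later times. Its treated level was highest at 5 h, at 4022.

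Sod2 and Tnip3 had their largest ratio at 24 h. Sod2 was 2744, 2524, 2512 and 3356 in treated cells, and its log2 ratios were 1.54, 0.78, 1.51 and 1.93 (1.84 to 2.03 at 24 h). Tnip3 had 12 untreated and 9 treated reads at 1 h and 9 and 18 reads at 5 h, and both log2 ratios, 0.53 and -0.08, had intervals that include 0. At 12 h there were 11 untreated and 49 treated reads, a log2 ratio of 2.40 (1.57 to 3.63). At 24 h there were 6 and 54 reads, a log2 ratio of 3.15 (2.19 to 4.91). The treated level of ABIN-3 transcript was 46.7 and 48.6 in these libraries, while that of Tnfaip3 was lower there than at 1 and 5 h. The summed leukocyte markers were 544 and 411 in these treated libraries and 1233 and 1202 in the untreated ones. Their part in the Tnip3 levels was not tested.

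**Figure D4:**
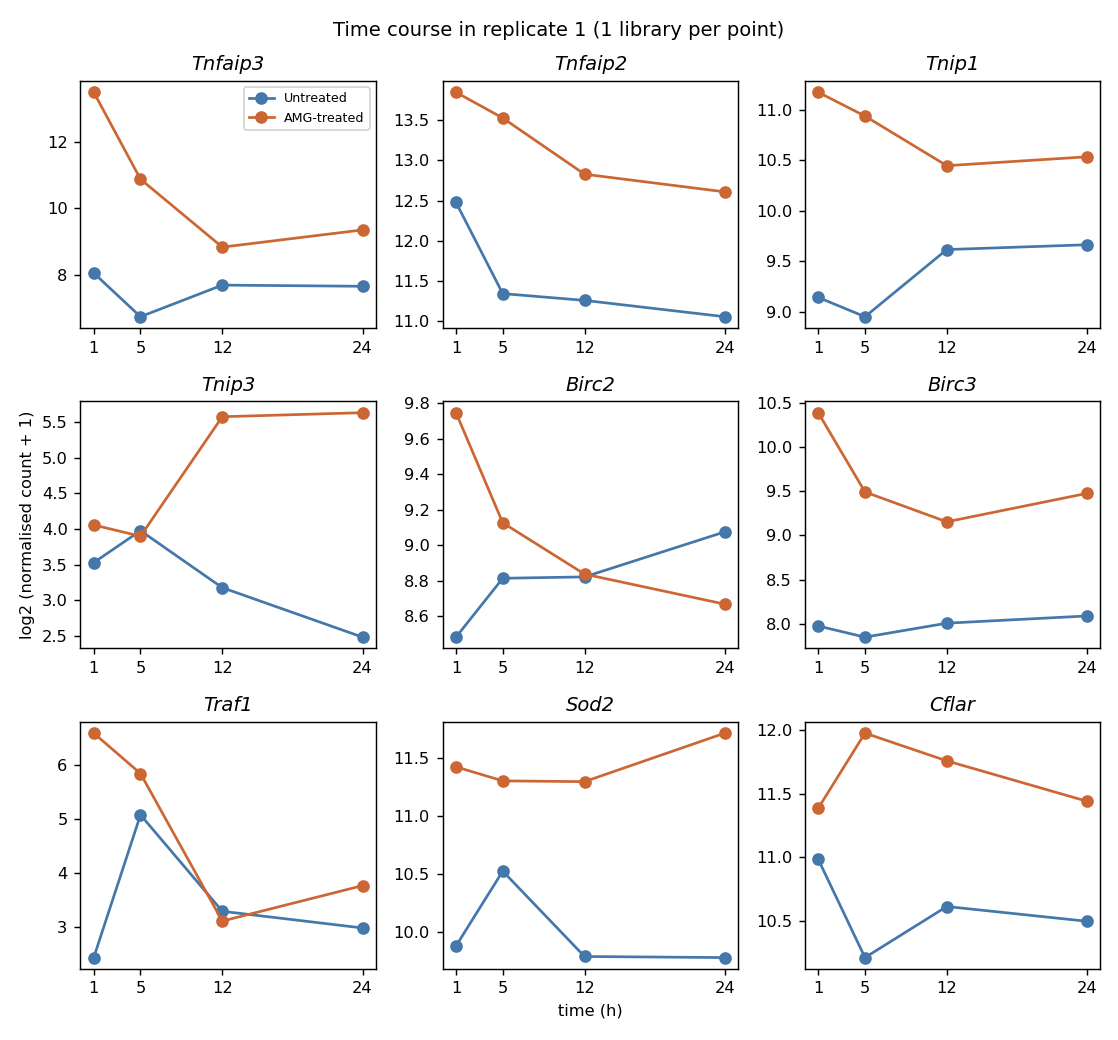
Time course of the 9 genes in replicate 1, with time in hours on the horizontal axis and log2(normalised count + 1) on the vertical axis, untreated in blue and AMG-treated in orange, 1 library for each point. Treated Tnfaip3 descends from 11398 at 1 h to 456 at 12 h, Sod2 stays between 2512 and 3356, and treated Tnip3 is highest at 24 h (48.6).

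Levels of different genes were compared only per kilobase of merged exon, a length that includes long alternative ends and so can understate the level of Cflar, Sod2 and Tnip3. In untreated cells at 5 h the order of mean normalised counts per kilobase was Tnfaip2 (356 ± 171), Tnip1 (204 ± 16.3), Cflar (182 ± 36.1), Birc2 (100.5 ± 8.01), Sod2 (80.6 ± 7.63), Birc3 (49.9 ± 4.32), Tnfaip3 (24.0 ± 2.80), Traf1 (1.01 ± 0.91) and Tnip3 (0.264 ± 0.458; SD, n = 3). The ranges of Tnfaip2, Tnip1 and Cflar overlapped, as did those of Traf1 and Tnip3, and the other neighbours in this order did not overlap. Under AMG, Tnfaip3 stood at 198 ± 106 per kilobase, in a range that overlapped those of Birc3 (159 ± 49.5), Sod2 (242 ± 74.4), Birc2 (118 ± 11.3) and Cflar (323 ± 18.7). By mean, Tnfaip3 was the seventh of the 9 without treatment and the fifth with it.

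The rest of the pathway was described from 7 lists with 93 genes, 86 of them tested. With limma 9 were higher and 0 lower, and with the block 41 were higher and 9 lower. Over all genes tested the shares higher and lower were 0.97% and 0.267% with limma, and 17.9% and 19.3% with the block. Without AMG-treated 5h replicate 3 the limma counts of the lists were 27 and 3, and without any other 1 of the 6 libraries they were 0 and 0. The share of all genes was not counted in those fits. The subunits and inhibitors of NF-kB held most of the 9, with 6 of 8 higher and a median log2 fold change of 1.44. Nfkbia, the inhibitor IkB-alpha, went from 314 ± 7.47 to 4994 ± 2692, a log2 fold change of 3.79 with a limma adjusted p of 0.0196. Nfkb1, the p105 precursor of p50, had a log2 fold change of 1.82 (limma adjusted p 0.0211), and Relb one of 2.09 (limma adjusted p 0.0491). Of the 22 genes of the receptor complex, 0 passed with limma and 4 were higher and 3 lower with the block, and the median was -0.03. The count with the block was near the share over all genes as higher and under it as lower. Tnfrsf1a, the main TNF receptor, was at 4287 ± 186 untreated and 3864 ± 219 treated, with a limma adjusted p of 0.433. Among 10 further ubiquitin editors and A20 partners, 0 passed with limma, 4 were higher and 2 lower with the block, and the median was 0.22. Rnf11, a partner of A20, had a log2 difference of 0.57 (limma adjusted p 0.246, with the block 0.00152, alternatives 0.000729 to 0.557).

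Of 12 ligand genes of the TNF and interleukin-1 families, 7 reached the low-count limit and were tested. Their median log2 fold change, 2.42, was that of Il33. Il1a, Tnf and Il33 had untreated means of 0.180, 1.26 and 3.21, and were tested only because their treated levels were high. Tnfsf9, Tnfsf11, Tnfsf12 and Il18 averaged above the limit without treatment, with log2 differences of 1.01, 2.49, 0.33 and -0.17. The median was the largest of the 7 lists, but the selection favours genes with high treated levels, so its rank is not interpreted. With limma 1 of the 7 tested ligand genes was higher, Il1a, which encodes interleukin-1 alpha. With the block 5 were higher and 0 lower. The shares over all genes tested with the block, 17.9% higher and 19.3% lower, stand beside each list count given here. Il1a averaged 0.180 ± 0.312 untreated and 98.0 ± 85.6 treated (SD, n = 3 each). It was called with a limma adjusted p of 0.0266, within 6.21e-07 to 0.177 over the alternatives. Tnfsf12, which encodes TWEAK and had the highest mean over the 6 libraries of the ligand genes, had a log2 difference of 0.33 and a limma adjusted p of 0.359. The caspase and death receptor machinery held 0 of 15 called genes with limma, 5 higher and 2 lower with the block, and a median of 0.19. Bax, a pore-forming death effector, was at 2704 ± 70.0 untreated and 4158 ± 459 treated, with a limma adjusted p of 0.0710 and one of 0.00130 with the block (alternatives 0.000603 to 0.839). In replicate 1 at 5 h, the log2 ratio of Bax was -1.18, opposite in sign. Among the other survival genes 1 of 9 passed with limma, and 5 were higher and 2 lower with the block, at a median of 0.28. The gene that passed was Ier3, an immediate early gene, from 1469 to 16778 (limma adjusted p 0.0438). Among the other antioxidant enzymes 1 of 15 was higher with limma and 11 with the block, and the median was 0.48. In replicate 1 at 5 h the median of this list was -0.65, opposite in sign, in the pair whose untreated library held 6.35% ribosomal protein reads. The gene that passed with limma was Txnrd1, thioredoxin reductase, with a log2 fold change of 2.29 and a limma adjusted p of 0.0266. Sod3, the secreted superoxide dismutase, had the highest mean of that list over the 6 libraries and had a log2 difference of 0.48 (limma adjusted p 0.617, with the block 0.00617, alternatives 0.00438 to 0.971).

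**Figure D5:**
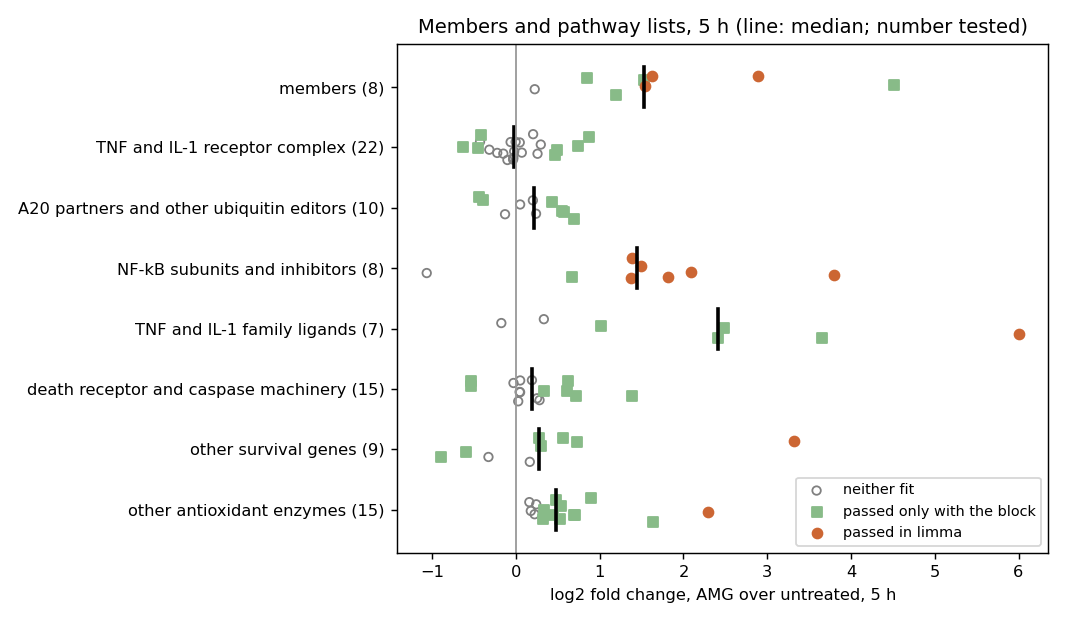
Log2 fold change of AMG over untreated at 5 h for the tested members and for the tested genes of 7 pathway lists, with 1 point per gene and a black line at each median. Orange points passed with limma, green squares passed only with the replicate block and open circles in neither fit. The medians of the 7 tested ligands (2.42), the 8 members (1.53) and the subunits and inhibitors (1.44) lie well right of 0. That of the receptor complex (-0.03) lies at 0. The ligand median depends on Il1a, Tnf and Il33, which reached the low-count limit only through their treated libraries.

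Genes next to the 9 on the chromosome were checked for the same comparison. Exoc3l4, 10790 bases from Tnfaip2, had a log2 difference of 1.87 (limma adjusted p 0.164, with the block 0.00219, alternatives 0.00169 to 0.409). Casp8, which encodes the caspase that cFLIP blocks and lies 36489 bases from Cflar, had one of 0.33 (limma adjusted p 0.260, with the block 0.0275, alternatives 0.0230 to 0.518). Wtap, 12676 bases from Sod2, was at 0.04, and Gpx3, 407 bases from Tnip1, was at 0.21. Yap1, 58812 bases from Birc3, was at -0.41 (limma adjusted p 0.202, with the block 0.0109, alternatives 0.0109 to 0.776).

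Over the 14 libraries, with each table centred on its own mean, the genes closest in pattern were described by Pearson's r among 12844 genes. The libraries share treatment, time and depth, so r describes them and was not tested. Tnip1 and Birc3 were closest among the members, at 0.969, and Birc2 and Cflar the farthest apart, at 0.290. Birc3 was nearest to Cxcl2 (0.980), Ier3 (0.977) and Nfkbia (0.976). Tnfaip3 was nearest to Phlda1 (0.961), Nfkbid (0.958) and Dusp6 (0.954), and Tnip1 to Gm16098 (0.979), Birc3 and Ccl20 (0.949). Birc2 was nearest to Egr1 (0.903), an immediate early transcription factor, then to Yod1 (0.867) and Gramd3 (0.841). Sod2 was nearest to Glrx (0.977), Cd40 (0.969) and Mmp1a (0.966). Cflar was nearest to Cyp27b1 (0.948), Tfe3 (0.943) and Fgfr1op (0.942), Tnfaip2 to Hmga2 (0.960), G3bp1 (0.945) and Ets1 (0.937), and Traf1 to AA467197 (0.946), Leprotl1 (0.936) and Tapbp (0.929). Tnip3 had no such value, since its mean was under 10 in the table of replicates 2 to 4.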

How the data were processed

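RNA was measured in 14 libraries of mouse fibroblasts, grouped by the sample titles. The authors made stranded mRNA libraries, aligned reads to mm10 with TopHat2 2.0.13 (with FastQC 0.11.5, SAMtools 0.1.19.24 and HTSeq 0.5.3p3 in the submitters' processing notes) and normalised with DESeq. The deposited values are a normalised signal: read counts per gene divided by a size factor, separately for replicate 1 and for replicates 2 to 4. Gene names, loci and lengths came from GENCODE M21. The annotation release the authors counted with was not given in the sources used here.

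Values were whole multiples of 1 read in every library (100% within 0.1), which gave depths of 12545537 to 34696529 reads. Replicates 2 to 4 at 5 h were compared with limma 3.58.1 in R 4.3.3 (trend, log2(normalised count + 1), mean of at least 10, Benjamini-Hochberg over 13096 genes, threshold 0.05). Whether replicates came from separate animals is not stated beyond their being called biological, so p-values measure the spread between these libraries. Replicate 1 was described with exact binomial 95% intervals. Intervals cover counting error only. Same-numbered treated and untreated libraries deviated together from their group means (r of 0.651, 0.765 and 0.697 for replicates 2, 3 and 4, against -0.588 to 0.120 for different numbers), so the numbers were taken as pairs.

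Alternatives were pseudocounts of 0.1 and 10, other filters, a replicate block, no trend, upper quartile scaling, DESeq2 1.42.0 or edgeR 4.0.16 on reads recovered from the values, edgeR on all 4 replicates, a length correction (lengths for 90.7% of genes) and leaving out each library. On recovered reads edgeR called 3 and DESeq2 7 of the tested members. Named pathway genes were, in each list, the up to 3 passed genes with the largest change and the gene with the highest mean over the 6 libraries. Neighbours were the nearest tested genes, and the 3 most similar genes were named for each member. The members and lists were chosen with earlier results of these data known.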

Additional observations from a re-analysis of the deposited data

Results flagged for a closer look

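Both results concern Birc2, which encodes cIAP1. Among the 4 replicates at 5 h its log2 ratio in replicate 3, 0.027, stood apart from the others, which were 0.31 to 0.33. The gap was 0.956 of the whole range, over Dixon's 95% critical value for 4 samples. The same check was run on 9 genes, and chance marks about 1 in 20. The other result is a difference between times. Birc2 was lower with AMG at 24 h, with a log2 ratio of -0.41 in 1 pair of libraries, whereas its ratio was above 0 in all 4 replicates at 5 h. The difference was not tested.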

How the results depend on the processing

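Of the tested members, 3 were higher at 5 h with limma. With the replicate block, which follows the pairing of the libraries, 7 were higher, as with edgeR with the block (7), the length correction with the block (7) and DESeq2 without a block (7). Without a trend 0 were higher, and leaving out 1 library gave 0 to 6, in fits for which the share of all genes was not counted. The lower count was 0 under every alternative run. Of the pathway genes, 9 were higher: 41 with the block, 41 with edgeR and the block, 39 with the length correction and the block, 22 with DESeq2, 2 without a trend, and 0 to 27 without 1 library. The lower count of the pathway genes, 0 with limma, was 9 with the block, 9 with edgeR and the block, 7 with the length correction and the block, 1 with DESeq2 and 0 to 3 without 1 library. Over all genes tested, 17.9% were higher and 19.3% lower with the block, and 6.68% were higher with DESeq2. The cause of these moves was not tested. Counts past 2-fold in replicate 1 stayed within 1.5 times of those reported. No called member changed sign in these alternatives, while the Birc2 ratio at 12 h, 0.02, was -0.01 with upper quartile scaling. Over single members, 21 alternative fits at 5 h gained and 19 lost the threshold, and 15 alternative ratios of replicate 1 lay outside the binomial interval. The other 277 values kept their call at 5 h or lay within that interval. Depth limited Tnip3 and Traf1, with at most 54 reads for Tnip3 in any library.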

Other observations

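Some genes outside the naming rule were looked at after their values were seen. Bid, the death agonist that caspase-8 cleaves, was at 334 ± 72.8 untreated and 903 ± 321 treated at 5 h (SD, n = 3 each), with no overlap between the groups. Its limma adjusted p was 0.0865, against 0.000128 with the block, within 8.00e-05 to 0.294 over the alternatives, and its log2 ratio in replicate 1 was 0.43, 0.87, 0.26 and 1.26 at 1, 5, 12 and 24 h. Tnf averaged 1.26 untreated and 32.0 treated, in groups that overlapped, with a limma adjusted p of 0.150 and one of 0.00691 with the block, within 0.00206 to 0.396 over the alternatives. In replicate 1 its log2 ratio was 5.99, 4.29, 1.96 and 3.77 at the 4 times. Il1a had log2 ratios of 6.64, 6.37, 7.85 and 7.77 at these times. Both genes were near 0 without treatment in replicates 2 to 4, Il1a at 0.180 ± 0.312, so the size of their ratios depends on the pseudocount. The log2 fold change of Il1a in replicates 2 to 4 ranged from 3.07 to 8.62 over the alternatives.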
